A study of Mus musculus with 32 samples.

Results

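Transcripts of 10 genes that respond to fibroblast growth factor (FGF) and other growth factor signals were followed across an RNA sequencing study of mouse embryonic stem cells. The genes were 3 immediate early transcription factors (Egr1, Fos and Fosl1), the growth regulator Myc, the zinc finger factor Klf6, the feedback inhibitors Dusp6, Spry2 and Spry4, and the ETS factors Etv4 and Etv5. The rule lists them by name and uses no measured value, but members and lists were chosen with earlier results of these data known. By symbol, 10 of 10 were found among 17424 distinct gene symbols over 5 tables of normalised counts. Fosl1 and Egr1 were listed in the serum and hairpin tables, and were not analysed in the other 3.

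FGF ligands bind receptor tyrosine kinases, which signal through adaptors, RAS, RAF and the kinase MEK to the kinase ERK. Active ERK induces immediate early genes within minutes and raises Etv4, Etv5, Dusp6, Spry2 and Spry4, the last 3 of which limit the pathway in turn. In mouse embryonic stem cells this pathway favours exit from the naive state, and the MEK inhibitor PD0325901 is a standard component of serum-free naive medium.

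Every library came from E14, an established mouse embryonic stem cell line, and each of the 16 groups had 2 libraries. The study asked how loss of CTCF, a DNA-binding organiser of chromatin loops, or of the cohesin subunit RAD21 changes gene expression. Each protein was targeted through an auxin-inducible degron (AID), a tag that marks a protein for destruction when an auxin is added. Cells with tagged CTCF received 500 uM indole-3-acetic acid (IAA) for 0, 12 or 24 h, and cells with tagged RAD21 received 1 uM 5-Ph-IAA for 0, 12 or 24 h.

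All other groups also had tagged CTCF. A pair of groups was labelled as serum culture, with 0 or 12 h of IAA. Another pair carried a control hairpin or a hairpin against Chd4, the ATPase of the NuRD chromatin remodeller, without IAA. The last 6 groups overexpressed a control, wild-type CTCF or mutated CTCF, each without IAA and with it. The labels give 12 h for the treated control and mutated CTCF groups, and no time for the group titled as wild-type CTCF with IAA. The growth protocol gives every sample a serum-free medium with 1 uM PD0325901, 3 uM CHIR99021 (an inhibitor of the kinase GSK3) and 1000 U/mL leukemia inhibitory factor, so the composition of the serum medium is not given in the sources used here. Nor do the labels give the vectors, the CTCF mutation, whether a line is 1 clone, or whether replicates were separate cultures, so p-values measure the spread between these libraries only.

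In 4 libraries the title and the treatment label disagreed, namely those titled as mutated CTCF without IAA (labelled as treated) and as wild-type CTCF with IAA (labelled as untreated). Groups follow the titles. Library totals of the normalised counts lay between 15364584 and 19642332, and replicates correlated with r from 0.98 to 0.99 across genes, a description over genes that are not independent. Of 8 embryonic stem cell markers, 8 had a mean of at least 10 in every group. The hairpin against Chd4 lowered Chd4 by log2 -1.45 (SE 0.06, adjusted p = 4.95e-06), from 9923 and 9526 to 3379 and 3729. Ctcf and Rad21 mRNA do not report on degraded protein, and Ctcf mRNA rose after 12 h of IAA by log2 0.29 (SE 0.05, adjusted p = 0.0083). Wild-type and mutated CTCF constructs gave Ctcf values of 9275 to 9712 without IAA, against 4134 and 4332 in the control cells.

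On GRCm38 (mm10), Dusp6 lies at chr10:99263231-99267489 on the plus strand and Spry2 at chr14:105891947-105896819 on the minus strand. Fos lies at chr12:85473890-85477273 (plus), Fosl1 at chr19:5447547-5455946 (plus), Etv4 at chr11:101769742-101785371 (minus), Etv5 at chr16:22381309-22439719 (minus), Klf6 at chr13:5861482-5870394 (plus) and Myc at chr15:61985391-61990374 (plus). All 10 genes are protein-coding. Exons of Fosl1 overlap those of Ccdc85b on the opposite strand over 1163 bases, and whether counting used strand is not given, so Fosl1 values are uncertain.

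RefSeq promoter entries on GRCm38.p6 matched 5 of the 10 genes: Fos, Dusp6, Spry2, Etv5 and Klf6. The 250 bases before the start sites of Dusp6 (chr10:99262981-99263230, plus strand) and Spry2 (chr14:105896820-105897069, minus strand) are shown because these feedback inhibitors fell together in all 3 IAA comparisons of the overexpression table. Capitals mark GGAA or its complement TTCC, the core letters bound by ETS factors, a motif chosen after values were seen.
Dusp6: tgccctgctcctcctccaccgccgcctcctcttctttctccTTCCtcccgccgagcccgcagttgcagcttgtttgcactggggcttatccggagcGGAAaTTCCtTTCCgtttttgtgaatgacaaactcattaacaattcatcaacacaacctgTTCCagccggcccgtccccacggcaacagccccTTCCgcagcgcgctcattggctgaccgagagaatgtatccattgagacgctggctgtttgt
Spry2: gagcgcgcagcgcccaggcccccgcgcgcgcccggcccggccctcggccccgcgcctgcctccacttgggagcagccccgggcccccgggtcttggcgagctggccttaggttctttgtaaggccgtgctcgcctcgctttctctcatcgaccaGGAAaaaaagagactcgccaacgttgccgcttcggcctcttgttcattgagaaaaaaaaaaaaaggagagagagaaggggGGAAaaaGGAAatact
The core occurred 6 times in the Dusp6 window and 3 times in the Spry2 window, on either strand. Among 32536 windows of equal length 93.4% held it, with a median of 3, so its presence does not set these windows apart. No window of the 5 genes held any of 5 longer motifs searched on both strands. These were the CArG box, by name alone (1.48% of all windows), the ETS site CCGGAAGT (2.90%), the AP-1 site TGANTCA (6.73%), the CRE TGACGTCA (1.56%) and the CTCF core, also by name alone (2.96%). A match or its absence describes these letters in this window and no more.

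Untreated cells in serum had far higher levels of 4 of the 10 genes than untreated cells in serum-free medium. Below, ppm stands for parts per 1000000 of a library's total of normalised counts, and differences between media are of log2(ppm + 1). Spry4, an inhibitor of receptor tyrosine kinase signalling, was at 2569 and 2426 normalised counts in serum, against 6.28 and 5.28 in serum-free CTCF AID cells. The other serum-free groups had 15.1 and 8.99 (RAD21 AID), 55.8 and 52.4 (overexpression control), and 1.12 and 3.54 (control hairpin). Every serum library thus lay above every serum-free one, by log2 5.39 to 7.17.

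Myc, a regulator of growth and ribosome production, was at 887 and 877 in serum. It was at 47.5 and 42.8 in serum-free CTCF AID cells, 25.8 and 17.04 in RAD21 AID cells, 81.9 and 72.6 in overexpression control cells, and 2.55 and 3.88 in control hairpin cells. The difference was log2 3.51 to 5.63 over the 4 serum-free groups. Dusp6, which encodes a phosphatase of ERK, was at 1396 and 1521 in serum and between 44.8 and 273.8 in the serum-free libraries, a difference of log2 2.69 to 4.16. Spry2, a relative of Spry4, was at 1347 and 1441 in serum and between 180.9 and 533.8 without it, a difference of log2 1.79 to 2.82.

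Of the 8 genes listed in all 5 tables, 4 were therefore at least 2-fold higher in serum than in each of 4 serum-free groups, and 0 were at least 2-fold lower. Over 12804 genes compared in this way the share was 6.88% in either direction, with 2.98% higher and 3.90% lower. Against the CTCF AID cells alone 6 of 8 were higher, with Fos and Etv4 added, where 18.2% of genes were called (8.26% higher and 9.97% lower). Etv4 only just passed, at log2 1.02. It ran from 0.82 to 1.08 over other settings and from 0.92 to 1.12 with 1 library left out. No test was made, because serum and serum-free libraries stand in tables that were normalised separately, and culture medium and table cannot be told apart. The median difference over all genes lay between -0.05 and 0.01 for the 4 serum-free groups.

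Etv5 and Klf6 differed far less with culture, and Etv4 unevenly. Etv5 was at 7909 and 7923 in serum and between 5244 and 9594 in the untreated serum-free libraries, with differences of log2 0.04 to 0.92. Klf6, an early response gene of the KLF family, was at 1171 and 1199 in serum and between 1382 and 2219 without it, with differences of log2 -0.55 to -0.04. Etv4 was at 1081 and 1073 in serum. Its serum-free values were 484 to 850 in 3 of the groups but 66.6 and 88.7 in control hairpin cells, so the difference ran from log2 0.54 to 3.83.

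Fos, a subunit of the AP-1 transcription factor, did not follow culture. It was at 165.6 and 177.7 in serum and between 24.2 and 41.0 in 3 serum-free groups, a difference of log2 1.93 to 2.25. Control hairpin cells had 1386 and 1523, above the serum cells by log2 2.64. Egr1, another immediate early factor, was at 470.0 and 484.8 in serum and at 19.3 and 15.6 in control hairpin cells, so Fos and Egr1 were ordered oppositely in these groups. Fosl1 was at 10.3 and 32.0 in serum and at 0 and 5.83 in control hairpin cells.

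**Figure D1:**
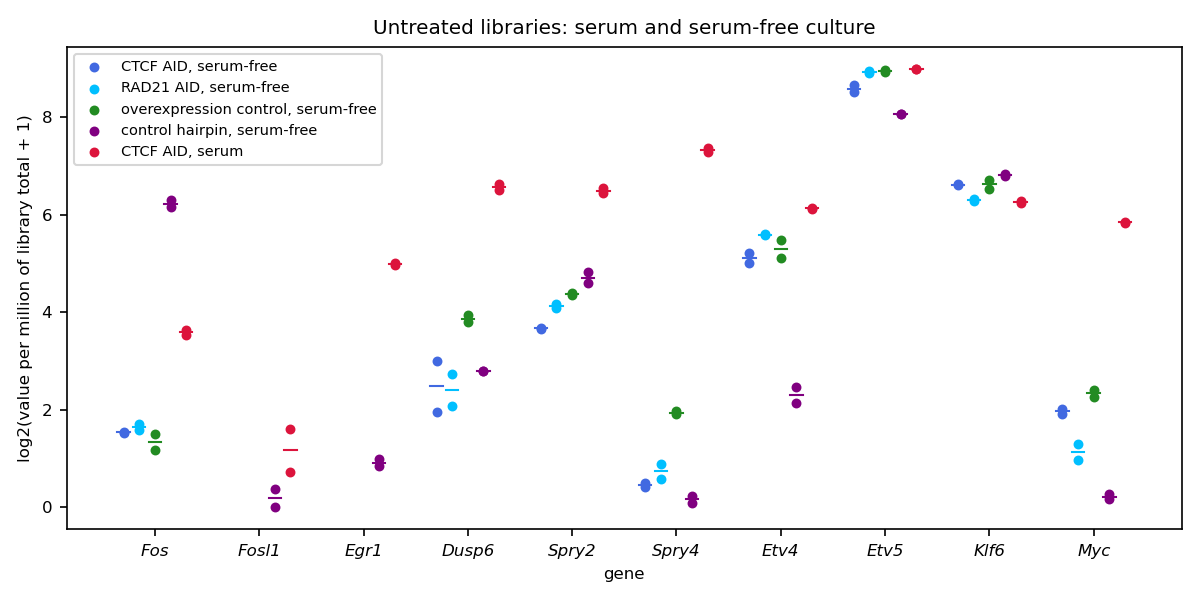
Levels of the 10 genes in untreated libraries, as log2(ppm + 1), with 1 point per library, a bar at the mean of 2 libraries and 1 colour per group. The serum libraries lie above every serum-free library for Dusp6, Spry2, Spry4 and Myc, while Fos is highest in the control hairpin libraries.

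Per kilobase of exon, Etv5 led, in every group, those of the 10 genes that were listed there. In serum-free CTCF AID cells it was at 93.8 ± 5.89 ppm per kilobase (SD, n = 2), followed by Klf6 at 22.1 ± 0.06, Etv4 at 10.8 ± 1.11 and Spry2 at 5.63 ± 0.08. Dusp6 at 1.57 ± 0.93 and Myc at 1.07 ± 0.08 came next and overlapped, and then Fos at 0.81 ± 0.01 and Spry4 at 0.078 ± 0.009. In serum Spry2 (42.8 ± 2.09), Spry4 (33.7 ± 1.33) and Dusp6 (29.8 ± 1.85) held the places below Etv5 (123.7 ± 0.27). Etv4, Myc, Klf6, Egr1, Fos and Fosl1 followed in that order, and the libraries of neighbours did not overlap.

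Other genes of the pathway, from lists fixed with the members, were counted in the same way, beside 2.98% of all genes higher and 3.90% lower, and differences between lists were not tested. Among feedback inhibitors, 4 of 10 were at least 2-fold higher in serum than in every serum-free group and 0 were lower. They were Dusp4 (26.4 ppm, against 0.91 to 4.19 without serum), Dusp5, Spred1 and Spred3, which act on the same cascade as Dusp6 and the Sprouty proteins. Of 22 adaptors, RAS, RAF and kinase genes 0 passed in either direction. Among receptors Egfr was higher and Kit lower, the latter at 57.3 ppm against 468.5 to 643.9 without serum. Of 5 ligands Fgf15 was higher and Pdgfa lower, and of 16 immediate early genes Junb and Fosl2 were higher.

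Marker genes of other cells and states also differed in these libraries. Of 9 genes known to be higher in serum culture, such as Dnmt3l and Id1, 7 were at least 2-fold higher against every serum-free group, and of 10 naive pluripotency genes Nanog, Prdm14 and Tfcp2l1 were lower. Of 6 feeder fibroblast markers 4 were listed in the serum table, with a summed level of 39.7 and 41.9 ppm. The sum was 1.12 to 2.65 in 3 serum-free groups, with 2 markers listed. It was 12.2 and 16.1 in control hairpin cells, where Thy1 was highest and 1 of 4 listed markers had a mean of at least 10. Col1a1 alone was at 26.4 ppm in serum and 0.32 to 0.99 without it. The part of these cells in the Dusp6, Spry2, Spry4 and Myc levels was not tested, and in bulk RNA fewer cells of a type and less RNA per cell cannot be told apart.

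Differences within a table come from limma on log2(normalised count + 1). Called here means an adjusted p (Benjamini-Hochberg, across every gene tested in the table) under 0.05. After 12 h of IAA in serum-free CTCF AID cells, 4 of 8 genes rose (Myc, Spry2, Klf6 and Etv5) and 0 fell, where 17.8% of 13699 genes were called (9.39% higher and 8.40% lower). The median difference of the 8 was log2 0.36, against 0.00 over all genes tested. Myc went from 47.5 and 42.8 to 121.0 and 122.9, and to 161.4 and 200.7 at 24 h. Its libraries were ordered by time without overlap, with differences of log2 1.42 (SE 0.19, adjusted p = 0.0031) and 1.97 (SE 0.19, adjusted p = 0.00062).

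Spry2 went from 180.9 and 184.0 to 242.3 and 256.9 at 12 h and 268.7 and 290.4 at 24 h. These rises were log2 0.45 (SE 0.12, adjusted p = 0.040) and 0.61 (SE 0.12, adjusted p = 0.011). Klf6 went from 1510 and 1511 to 1865 and 1772, and then to 1963 and 1989. Both of its rises were small and called, log2 0.27 (SE 0.05, adjusted p = 0.015) and 0.39 (SE 0.05, adjusted p = 0.0030). Etv5 rose at 12 h by log2 0.18 (SE 0.05, adjusted p = 0.047) and had a difference of 0.11 at 24 h (adjusted p = 0.17).

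At 24 h again 4 of 8 genes had risen (Myc, Fos, Spry2 and Klf6) and 0 had fallen, where 22.5% of all genes were called (11.7% higher and 10.8% lower). Fos was at 29.9 and 29.1 before IAA, 30.2 and 64.0 at 12 h, and 90.8 and 75.2 at 24 h. Its 12 h libraries disagreed, and only the 24 h difference was called, log2 1.46 (SE 0.37, adjusted p = 0.030). The difference between 24 h and 12 h was called for 0 of 8 genes, where 0.146% of all genes were called (0.0876% higher and 0.0584% lower). At an unadjusted p under 0.05 from the same limma fit 2 of the 8 passed, Fos (log2 0.89) and Myc (0.56).

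Spry4 was higher in every treated library, at 12.9 and 12.2 (12 h) and 14.6 and 13.4 (24 h) against 6.28 and 5.28. It missed the threshold at these low values, with log2 1.00 (adjusted p = 0.15) and 1.15 (adjusted p = 0.093). Dusp6 had untreated values of 44.8 and 108.3 that spanned all of its treated ones, and its 24 h difference was log2 -0.41 (95% interval -1.35 to 0.54). Etv4 was lower in each treated library, at 484.0 and 557.9 before and 307.5 to 483.3 after, with log2 -0.36 and -0.43 and no call.

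With 1 library left out at a time, the calls of Myc at both times and of Klf6 at 24 h were kept. Those of Spry2 at 12 h (log2 0.41 to 0.49) and Fos at 24 h (1.32 to 1.59) were lost without any 1 of their 4 libraries, each of which leaves 1 group with a lone library. Etv5 at 12 h was kept without untreated replicate 1 alone (0.24), and was at 0.11 without untreated replicate 2, 0.19 without 12 h replicate 1 and 0.17 without 12 h replicate 2. Klf6 at 12 h was kept without 12 h replicate 2 alone and Spry2 at 24 h without 24 h replicate 1 alone, with little change in size. The range of the calls was 1 to 2 at 12 h and 2 to 3 at 24 h.

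**Figure D2:**
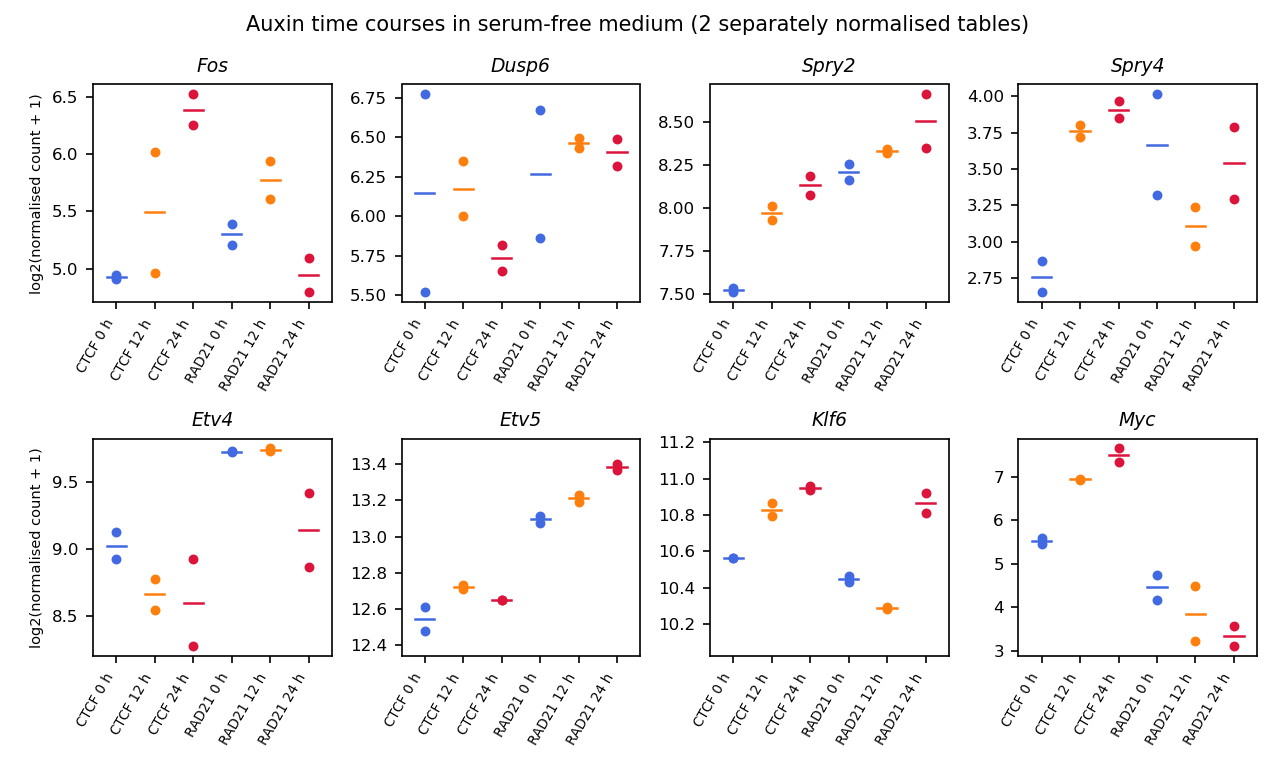
Normalised counts of 8 genes as log2(normalised count + 1) at 0, 12 and 24 h of auxin in the separately normalised CTCF AID and RAD21 AID tables, with 1 point per library, a bar at the mean of 2 libraries and a vertical scale of its own in each panel. Myc, Spry2 and Klf6 rise over time in the CTCF AID libraries, and in the RAD21 AID libraries Etv5 rises with little spread while Myc lies low.

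Counts of the wider pathway after 12 h of IAA stand beside 9.39% of all genes higher and 8.40% lower, and no list was tested. Of 16 immediate early genes 0 were called higher and 5 lower, among them Jund (log2 -1.32) and Csrnp1 (-1.21). Of 14 ETS and MYC family factors 3 rose, including Etv1 (1.26), an ETS relative of Etv4 and Etv5, and Mycn (0.49), while Ets2 fell (-1.06). Of 10 later ERK targets 4 rose, including Emp1 (1.04) and Epha4 (0.50), and Epha2 fell (-0.80). Of 10 other feedback inhibitors Il17rd rose (0.76) and Dusp14 fell (-0.87). Fgf4, the main FGF ligand of these cells, fell by 0.30 and Hbegf by 1.41 on the log2 scale, and Pdgfa rose (1.05). Feeder markers summed to 2.23 and 2.29 ppm before IAA and 2.34 and 2.12 after 12 h.

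In serum the same 12 h of IAA gave calls for 5 of 10 genes, 4 higher and 1 lower, where 17.0% of 14494 genes were called (7.73% higher and 9.25% lower). Myc rose from 887 and 877 to 1388 and 1417, by log2 0.67 (SE 0.05, adjusted p = 0.00025). Etv4 rose from 1081 and 1073 to 1271 and 1480 (log2 0.35, adjusted p = 0.021), Klf6 from 1171 and 1199 to 1359 and 1465 (0.25, adjusted p = 0.022), and Spry2 from 1347 and 1441 to 1633 and 1590 (0.21, adjusted p = 0.032). Etv5 fell from 7909 and 7923 to 6693 and 6814, by log2 -0.23 (SE 0.02, adjusted p = 0.00086).

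The other 5 genes were not called here. Spry4 went from 2569 and 2426 to 2646 and 2673 (log2 0.09, adjusted p = 0.18) and Dusp6 from 1396 and 1521 to 1482 and 1493 (0.03, 95% interval -0.10 to 0.16). Egr1 was at 470.0 and 484.8 before and 483.3 and 478.8 after (0.01, interval -0.16 to 0.18). Fos was at 165.6 and 177.7 before and 152.9 and 139.4 after (-0.23, adjusted p = 0.26). Fosl1 was at 10.3 and 32.0 before and 9.97 and 6.70 after, and its difference of log2 -1.07 had no call (adjusted p = 0.24). It became -0.30 without untreated replicate 2, and -1.84 with a call (adjusted p = 0.040) without untreated replicate 1.

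Set side by side, the Myc rise was log2 1.42 in serum-free medium from a mean of 45.1 and 0.67 in serum from a mean of 882. In normalised counts it was 76.85 and 520.4. Etv5 rose in the first table and fell in the second. Whether these effects differ was not tested, since the tables were normalised separately. Without 1 library at a time the serum calls of Myc and Etv5 were kept. That of Etv4 was lost without 12 h replicate 2 (log2 0.24). Those of Spry2 (0.16 to 0.26) and Klf6 (0.20 to 0.31) were kept without untreated replicate 2 and lost without each of the other 3 libraries, and the count ran from 2 (without 12 h replicate 2) to 5.

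Among the other pathway lists in serum, where 7.73% of all genes rose and 9.25% fell, Il17rd (log2 0.26) and Errfi1 (0.37) rose among 11 feedback inhibitors, and 0 fell. Of 14 ETS and MYC family factors Etv1 (0.40) and Erf (0.29) rose and 3 fell, including Mycl (-0.96) and Ets2 (-0.72). Fgf4 fell by 0.62 on the log2 scale. Feeder markers summed to 39.7 and 41.9 ppm before and 43.9 and 45.7 after IAA. Of 10 naive pluripotency genes 9 fell and 0 rose (median log2 -0.38), with a summed level of 2165 and 2176 ppm before and 1669 and 1712 after. Of 8 embryonic stem cell markers 5 fell and 1 rose, and of 5 primitive endoderm markers 2 rose, with a sum of 113.8 and 117.1 ppm before and 152.0 and 148.7 after. In that sum Sparc was highest, at a mean of 1537 and then 1974 normalised counts, and Gata6 lowest, at 19.1 and 23.0. The part of these markers in the differences of the 10 genes was not tested.

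In RAD21 AID cells given 5-Ph-IAA the calls against untreated cells were for Etv5 and Klf6. At 12 h of 5-Ph-IAA 1 of 8 genes was called, a rise, which is close to the 13.0% of 13738 genes called (6.66% higher and 6.35% lower). At 24 h 2 of 8 rose, where 13.7% were called (6.54% higher and 7.16% lower). Etv5 went from 8864 and 8631 to 9612 and 9346, and then to 10826 and 10562. Its differences were log2 0.12 (SE 0.03, adjusted p = 0.039) and 0.29 (SE 0.03, adjusted p = 0.0015). Klf6 went from 1382 and 1412 to 1246 and 1256 at 12 h and 1797 and 1941 at 24 h, so its 12 h libraries were the lowest and its 24 h libraries the highest. The 12 h difference was log2 -0.16 (adjusted p = 0.12), the 24 h difference 0.42 (SE 0.06, adjusted p = 0.0061), and the step between them 0.58 (SE 0.06, adjusted p = 0.0014).

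From 12 to 24 h Etv5 also rose (log2 0.17, adjusted p = 0.0085) and Etv4 fell, giving calls for 3 of 8 genes where 15.9% of all genes were called (7.67% higher and 8.26% lower). Etv4 was at 842.9 and 850.4 before, 847.7 and 860.4 at 12 h, and 465.5 and 681.5 at 24 h. The 24 h libraries were both low but far apart, and the fall from 12 h was log2 -0.60 (SE 0.16, adjusted p = 0.047). It became -0.33 without 24 h replicate 1 and was lost there and without either 12 h library (-0.61 and -0.59).

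Myc was at 25.8 and 17.04 before, 8.43 and 21.3 at 12 h, and 10.9 and 7.58 at 24 h. Its difference at 24 h was log2 -1.12 (95% interval -2.41 to 0.17, adjusted p = 0.22), so at these low values no call was made. Fos was at 41.0 and 36.0, then 47.8 and 60.6, and then 33.1 and 26.7, also with no call against untreated cells. Spry2 had 304.6 and 285.5 before and 325.4 and 403.8 at 24 h (log2 0.30, adjusted p = 0.18), and Dusp6 overlapped across times. Spry4 was at 15.1 and 8.99 before, 8.44 and 6.85 at 12 h, and 8.81 and 12.8 at 24 h, with no call.

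The 12 h call of Etv5 was lost without each of its 4 libraries in turn (log2 0.10 to 0.14), and its step from 12 to 24 h without 12 h replicate 2 (0.15) or 24 h replicate 1 (0.16). The 24 h calls of Etv5 and Klf6 were kept. Among the related genes, beside the shares of all genes given above, the feedback inhibitor Dusp4 rose at 12 h (log2 1.38) and 24 h (1.39), as 1 of 10 at each time. Of 16 immediate early genes Btg2 rose at 24 h (0.53) and 4 fell, among them Ier3 (-1.43) and Jund (-0.68). Feeder markers summed to 1.93 and 1.93 ppm before and 3.74 and 6.27 at 24 h, and their part in these differences was not tested.

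The Chd4 hairpin moved most genes of the table, with 67.4% of 15499 genes called (33.5% higher and 33.8% lower). Calls for 7 of 9 growth factor response genes, 5 higher and 2 lower, stand close to that background. Spry4 had the largest difference of the 9. It was at 1.12 and 3.54 in control hairpin cells and at 42.3 and 47.8 with the Chd4 hairpin, a difference of log2 3.89 (SE 0.48, adjusted p = 0.00042) that depends on the pseudocount at such low control values (4.15 with 0.5 and 2.79 with 5). Myc was also near the floor in control cells, at 2.55 and 3.88, and was at 20.4 and 20.8 with the Chd4 hairpin, a difference of log2 2.38 (SE 0.43, adjusted p = 0.0023). Under quantile normalisation the Myc difference was 1.02 with no call (adjusted p = 0.058).

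Etv4 rose from 66.6 and 88.7 to 137.7 and 144.1 (log2 0.87, SE 0.20, adjusted p = 0.0070). Egr1 rose from 19.3 and 15.6 to 31.8 and 35.7 (0.92, SE 0.30, adjusted p = 0.031), and was at 0.19 with no call under quantile normalisation. Spry2 rose from 457.8 and 533.8 to 627.9 and 628.5 (0.35, SE 0.10, adjusted p = 0.017). The control and Chd4 hairpin libraries did not overlap in any of the 10 genes, called or not, with 6 higher and 4 lower. The share of all genes without overlap was not counted, so this count cannot be set against a background.

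Klf6 and Fos fell. Klf6 went from 2151 and 2219 to 1037 and 1111, by log2 -1.03 (SE 0.06, adjusted p = 1.8e-05), and Fos from 1386 and 1523 to 1101 and 1060, by -0.43 (SE 0.07, adjusted p = 0.0014). Fos thus stayed far above its level in the other serum-free tables. Dusp6, at 115.9 and 116.7 against 109.6 and 87.7, had a difference of log2 -0.24 (95% interval -0.68 to 0.19). Etv5, at 5244 and 5254 against 4772 and 5065, had one of -0.09 (interval -0.21 to 0.02). Fosl1, at 0 and 5.83 against 6.66 and 16.8, was under the mean of 10 needed for a test.

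Without 1 library at a time, the calls of Spry4, Myc, Klf6 and Fos were kept. That of Etv4 was lost without Chd4 hairpin replicate 1 (log2 0.90) or replicate 2 (0.83). Egr1 kept its call without control replicate 1 alone (1.07), and Spry2 without control replicate 2 alone (0.46). The other libraries gave 0.77 to 1.00 for Egr1 and 0.23 to 0.35 for Spry2.

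**Figure D3:**
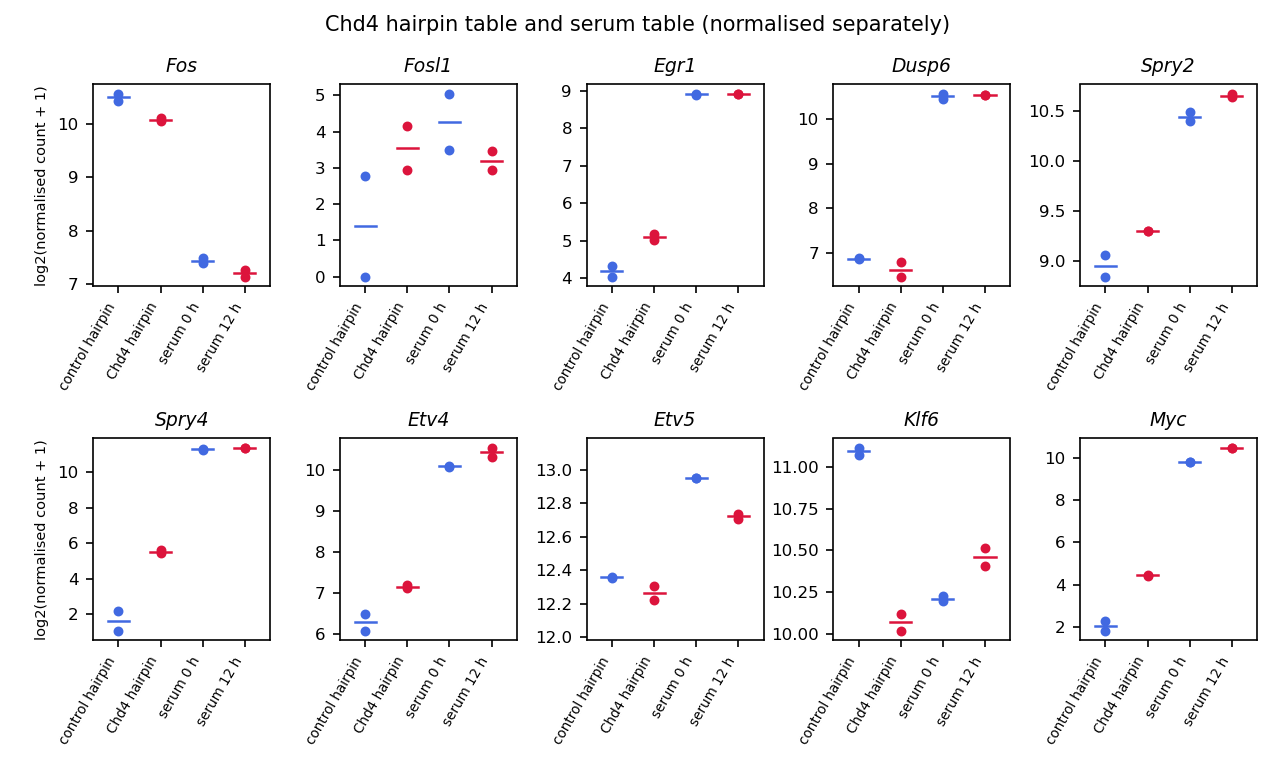
Normalised counts of the 10 genes as log2(normalised count + 1) in the hairpin table (control and Chd4 hairpin) and the serum table (0 and 12 h of IAA), which were normalised separately, with 1 point per library, a bar at the mean of 2 libraries and a vertical scale of its own in each panel. Spry4 and Myc rise with the Chd4 hairpin and remain below the serum libraries, while Klf6 and Fos fall.

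Counts of the related lists in the hairpin table are to be read against 33.5% of all genes higher and 33.8% lower, and no list was tested. Of 11 other feedback inhibitors 8 rose and 0 fell, with a median of log2 0.42 against 0.01 over all genes, led by Dusp14 (1.57) and Spred3 (1.17). Of 10 later ERK targets 9 rose and 0 fell, with a median of 1.26, led by Emp1 (2.46) and Plk2 (2.29). Immediate early genes went both ways, with 4 of 17 higher, such as Btg2 (2.14) and Atf3 (2.04), and 8 lower, such as Zfp36 (-1.55) and Maff (-1.37). The MYC antagonists Mxd4 (3.01) and Mxd1 (1.98) rose and Mxi1 (-1.50) fell. In the cascade 9 of 22 rose and 6 fell, shares near those of all genes, and the latter included Mapk3 (-1.75), which encodes ERK1, and Map2k1 (-0.73), which encodes a MEK kinase.

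Ligands and receptors went both ways, with Fgf4 (log2 -0.86), Kit (-1.36) and Insr (-1.30) lower and Egfr (1.03) and Fgfr1 (0.82) higher. Other markers moved with the hairpin as well. Feeder markers, 4 of 6 listed, summed to 16.1 and 12.2 ppm in control cells and 30.9 and 36.1 with the Chd4 hairpin. Thy1 was highest in both, at a mean of 269.3 and then 405.3 normalised counts. In control cells 1 of the 4 had a mean of at least 10, and Postn was lowest at 0.34. Of 7 primitive endoderm markers 6 were listed, and 4 rose while 2 fell. Their sum was 127.1 and 133.5 ppm and then 224.8 and 228.2, with Sparc highest at a mean of 2448 and then 3223 normalised counts. Of 8 embryonic stem cell markers 6 fell and 1 rose, and of 10 naive pluripotency genes 6 fell and 1 rose. Their part in the differences of the 10 genes was not tested.

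In cells overexpressing a control, 12 h of IAA gave calls for 5 of 8 genes, 1 higher and 4 lower, where 25.3% of 13938 genes were called (12.8% higher and 12.5% lower). Dusp6 fell from 273.8 and 247.0 to 84.0 and 118.7, by log2 -1.37 (SE 0.22, adjusted p = 0.00098). Spry2 fell from 381.2 and 370.9 to 280.2 and 282.5, by log2 -0.42 (SE 0.11, adjusted p = 0.015). Spry4 fell from 55.8 and 52.4 to 26.7 and 20.1, by log2 -1.19 (SE 0.38, adjusted p = 0.042). Of the 8 genes 4, these 3 feedback inhibitors among them, were lower in each treated library than in each untreated one, and 2 were higher. The share of all genes ordered in this way was not counted, so these counts cannot be set against a background.

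Etv5 fell from 9232 and 9594 to 8006 and 8151, by log2 -0.22 (SE 0.03, adjusted p = 0.00019). Myc alone rose, from 81.9 and 72.6 to 134.2 and 166.6, by log2 0.95 (SE 0.18, adjusted p = 0.0027). Fos was at 24.2 and 34.7 before and 72.2 and 48.0 after, and its difference of log2 1.00 missed the threshold (adjusted p = 0.093). Klf6 and Etv4 overlapped between the groups.

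Set beside the CTCF AID table, also 12 h of IAA in serum-free medium, Myc rose in both. Spry2 rose there and fell here, and Etv5 did likewise. Spry4 was at 6.28 and 5.28 before IAA there and at 55.8 and 52.4 here, and had a difference of log2 1.00 there and -1.19 here. Dusp6 had a difference of 0.03 there (95% interval -0.91 to 0.97) and -1.37 here (-1.85 to -0.89). The tables were normalised separately and their cells carried different constructs, so these differences between tables were not tested.

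In cells with wild-type CTCF, IAA lowered 2 of 8 genes and raised 0. That count is close to the 21.4% of all genes called (11.1% higher and 10.3% lower). Dusp6 fell from 235.7 and 356.1 to 113.4 and 128.7 (log2 -1.26, SE 0.22, adjusted p = 0.0023), and Spry2 from 372.9 and 394.9 to 270.5 and 298.6 (-0.43, SE 0.11, adjusted p = 0.015). Spry4 was at 75.5 and 51.3 before and 17.5 and 41.9 after. Its treated libraries disagreed, and log2 -1.17 just missed the threshold (adjusted p = 0.052). Myc was at 72.0 and 87.8 before and 101.8 and 87.1 after, with a difference of log2 0.24 (adjusted p = 0.37).

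In cells with mutated CTCF, 4 of 8 genes fell and 0 rose, where 16.2% of all genes were called (8.31% higher and 7.92% lower). Spry4 fell from 68.5 and 74.98 to 14.6 and 20.1 (log2 -2.002, SE 0.38, adjusted p = 0.0049). Dusp6 fell from 269.9 and 318.2 to 98.1 and 115.7 (-1.45, SE 0.22, adjusted p = 0.0012), and Spry2 from 439.5 and 425.2 to 313.4 and 256.9 (-0.61, SE 0.11, adjusted p = 0.0031). Etv5 fell from 9827 and 9716 to 8334 and 8285 (-0.23, SE 0.03, adjusted p = 0.00028). Myc was at 130.6 and 121.2 before and 103.3 and 111.3 after, with a difference of log2 -0.23 (adjusted p = 0.43).

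Whether IAA acted differently with a CTCF construct than with the control was tested as an interaction, and these contrasts share the control libraries. With wild-type CTCF 0 of 8 genes were called, where 1.41% of all genes were called (1.10% higher and 0.309% lower), and at an unadjusted p under 0.05 from the same limma fit 2 of 8 passed, Etv5 and Myc. The Dusp6 interaction was log2 0.12 (95% interval -0.56 to 0.79), that of Spry2 -0.02 (-0.35 to 0.32) and that of Spry4 0.02 (-1.17 to 1.21). The Myc interaction was -0.70 (interval -1.26 to -0.15), with an adjusted p of 0.28.

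With mutated CTCF 1 of 8 genes was called, Myc, at log2 -1.18 (SE 0.25, adjusted p = 0.045), where 1.64% of all genes were called (1.05% higher and 0.581% lower). Without IAA, Myc was also higher with mutated CTCF than with the control (0.70, SE 0.18, adjusted p = 0.045), the 1 call among 8 genes where 5.55% of all genes were called (3.31% higher and 2.24% lower). With wild-type CTCF and no IAA 0 of 8 genes were called, where 0.897% of all genes were (0.502% higher and 0.395% lower), and 0 of 8 passed an unadjusted p under 0.05 in limma. Both Myc calls used the libraries titled as mutated CTCF without IAA, which the treatment label gives as treated, and no interaction can be formed under that label. Each was lost without any 1 of its libraries (-1.33 to -1.02 and 0.61 to 0.79), and with the replicate number as a block (adjusted p = 0.066 and 0.059).

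**Figure D4:**
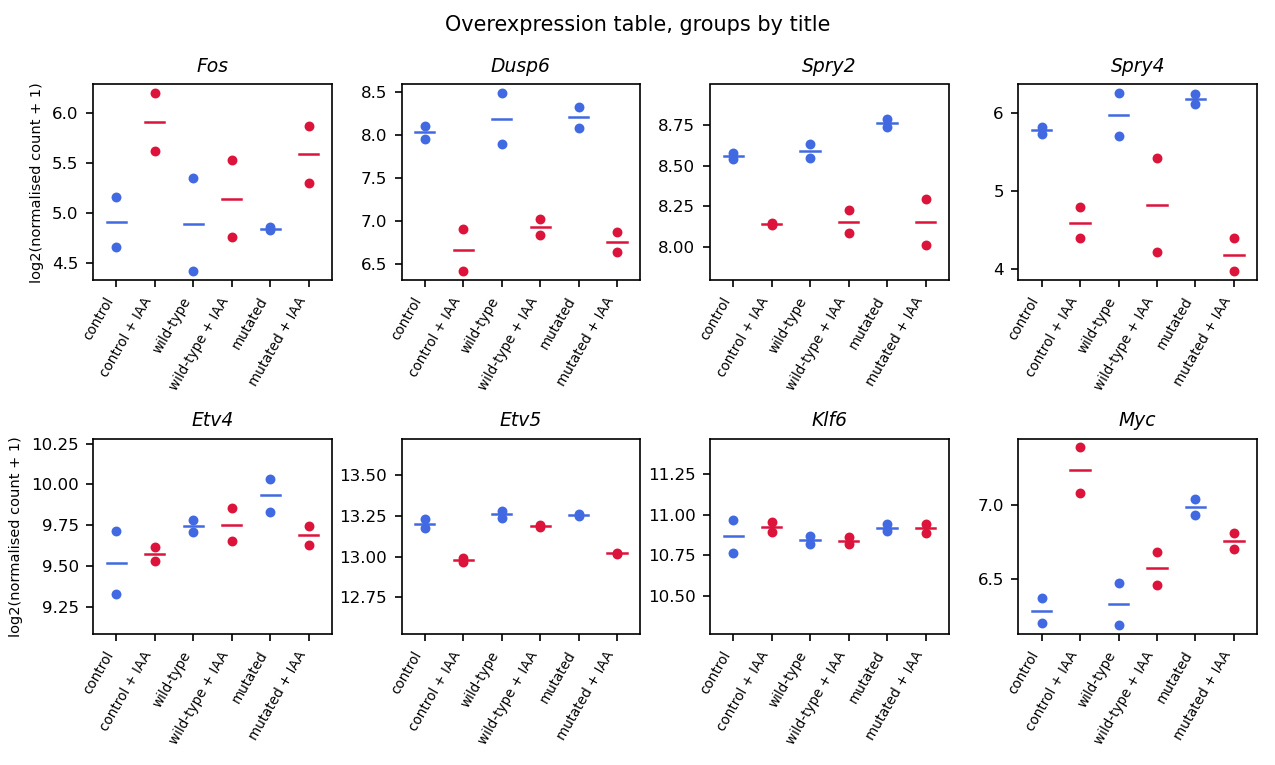
Normalised counts of 8 genes as log2(normalised count + 1) in the overexpression table, with groups by title, 1 point per library, a bar at the mean of 2 libraries and a vertical scale of its own in each panel. Dusp6 and Spry2 are lower with IAA in all 3 pairs of groups, and Myc is highest in control cells with IAA.

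Leaving out 1 library at a time, the Dusp6 calls were kept in all 3 kinds of cell, as were Myc and Etv5 in control cells and Spry2, Spry4 and Etv5 with mutated CTCF. Spry2 (log2 -0.44 to -0.40) and Spry4 (-1.39 to -0.99) in control cells were lost without any 1 of their 4 libraries. Spry2 with wild-type CTCF was lost without untreated replicate 2 (-0.39) or treated replicate 1 (-0.36). Spry4 with wild-type CTCF was called without treated replicate 2 (-1.77) and stood at -0.56 without treated replicate 1.

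Of the related genes after IAA, Fgfr2 rose by log2 1.58 in control cells, 1.25 with wild-type and 1.35 with mutated CTCF, and Fgfr1 by 0.78, 0.82 and 0.78, in comparisons with no shared libraries. Both encode FGF receptors, and in each comparison 3 of 10 receptors rose while 3, 3 and 4 fell (medians 0.16, -0.19 and -0.11), so the list as a whole had no common direction. Over all genes 12.8%, 11.1% and 8.31% rose and 12.5%, 10.3% and 7.92% fell. Among other feedback inhibitors Spred1 fell in each (-0.52, -0.25 and -0.48), and Il17rd rose in control cells (0.40) and with mutated CTCF (0.30). The immediate early gene Jund fell in each (-0.97, -0.46 and -0.80), as did Epha2 among later ERK targets (-0.60, -0.32 and -0.51). Feeder markers, 2 of 6 listed, summed to 0.88 to 2.76 ppm over the 12 libraries. Of 8 embryonic stem cell markers 5, 4 and 5 fell and 1, 3 and 2 rose, and their part in the differences was not tested.

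**Figure D5:**
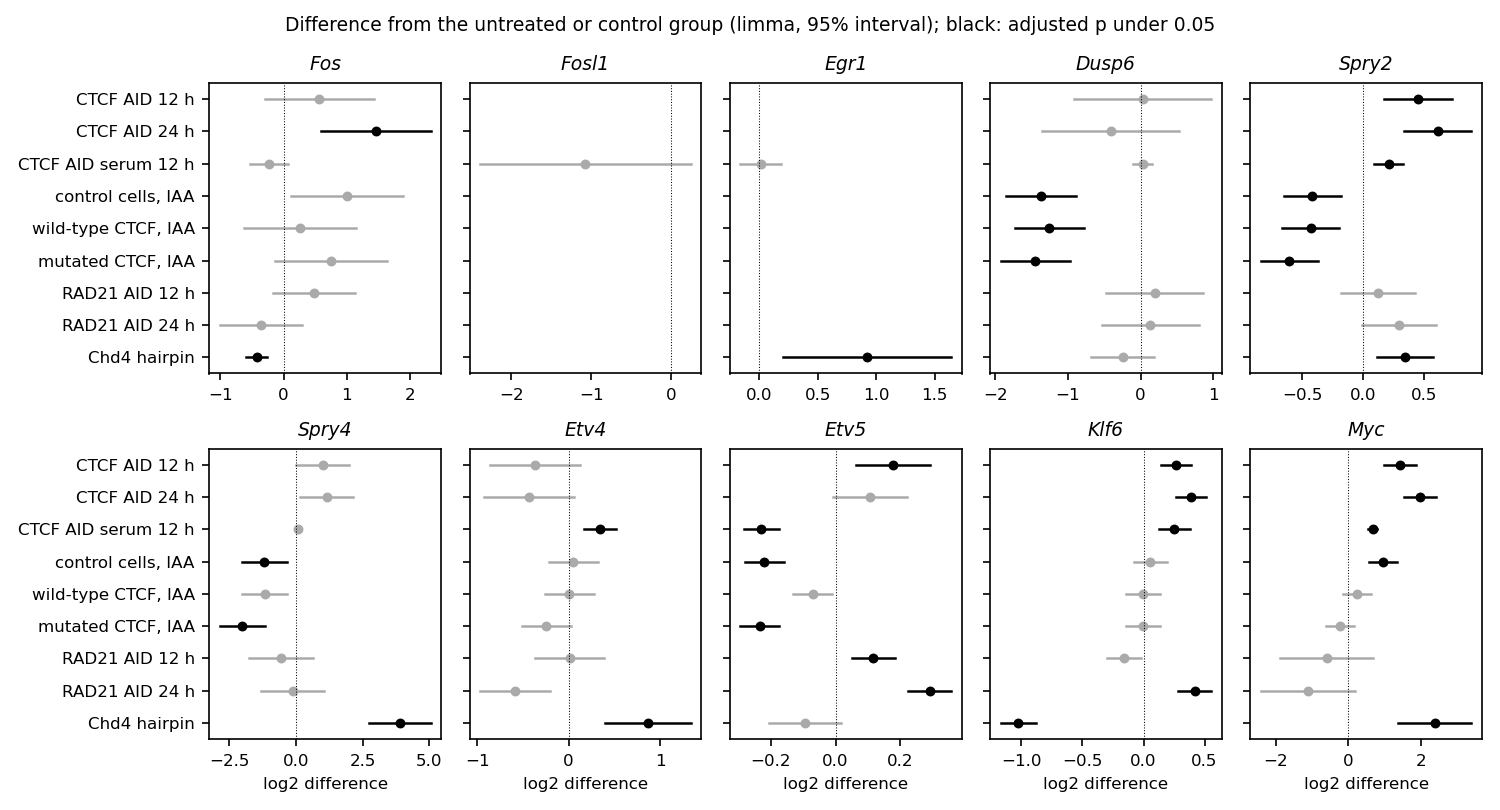
Log2 differences of the 10 genes from the untreated or control group with 95% intervals from limma, 1 row per comparison and a horizontal scale of its own in each panel, black where the adjusted p is under 0.05 and grey otherwise. Myc is called higher in 4 comparisons with IAA and in the Chd4 hairpin. Dusp6 is called only in the 3 comparisons of the overexpression table.

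Over the 9 comparisons with an untreated or control group, Myc was called higher in 5 and lower in 0, Dusp6 lower in 3 and higher in 0, and Klf6 higher in 4 and lower in 1. Spry2 was higher in 4 and lower in 3, and Etv5 higher in 3 and lower in 3. Comparisons within a table can share their control libraries, so these counts are not independent. The share of all genes called as often in the same direction was not counted, so they cannot be set against a background.

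As a description, each gene's pattern over 16 group means, centred within each table, was compared with that of 8968 or 8969 other genes. The most alike gene was S100a10 for Spry2 (r = 0.97), Pip4p2 for Klf6 (0.98), Cmss1 for Spry4 (0.95), Adam23 for Dusp6 (0.94), Trub2 for Myc (0.94), Bahd1 for Fos (0.93), Pusl1 for Etv4 (0.92) and Gatd1 for Etv5 (0.87). Among the 28 pairs of the 8 genes themselves, Spry2 with Spry4 had the highest r (0.74) and Etv4 with Klf6 the lowest (-0.80). Points share their tables and control libraries, and such values arise when many genes are searched, so no p is given.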

How the data were processed

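The authors deposited 5 separately normalised tables of normalised counts per gene, a signal with 1 column per library and no value below 0. Per the submitters' processing notes, Trim Galore, Bowtie2, STAR, RSEM, DESeq2 and mm10 were used, with no roles or versions. Low values were not whole multiples of a step (coherence 0.364 to 0.557), so reads were not recovered and depth is unknown. All 32 libraries were used, and 1 incomplete row was dropped.

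The fit used limma 3.58.1 on log2(value + 1) (lmFit, contrasts, eBayes with a mean trend) in R 4.3.3, all groups of a table together, for genes with a mean of at least 10, with Benjamini-Hochberg adjustment over all genes tested. A log2 difference on this scale understates changes of low genes. The code was tested on simulated data. Serum and serum-free levels were scaled to the library total and compared without a test, at 2-fold or more.

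Named genes were the 10 members, the targeted genes, per list up to 2 called genes with the largest rise and 2 with the largest fall (the higher group averaging 100 or more), and the genes most alike in pattern. Members, lists and tests were chosen with earlier results of these data known. Exon lengths and positions are from GENCODE M21, and promoters from RefSeq. Alternatives covered pseudocount, filters, scaling, the fit, the replicate block and each library left out.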

Additional observations from a re-analysis of the deposited data

Results flagged for a closer look

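The effect of IAA on Myc differed between cells with mutated CTCF and control cells, by the interaction term of the limma fit, at log2 -1.18 (95% interval -1.73 to -0.62, adjusted p = 0.045). Myc rose with IAA in control cells and was lower in both treated libraries of the cells with mutated CTCF, without a call there. The value rests on libraries whose title and treatment label disagree. No outlier could be sought, since each group had 2 libraries.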

How the results depend on the processing

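Of 39 calls of a gene in a comparison, 20 were kept without each library in turn and 19 were lost without at least 1, and in no alternative did a call change direction. All 39 held with a pseudocount of 0.5 or 5, without a filter and after median-of-ratios rescaling, as did all 33 that passed a filter at a mean of 100. Quantile normalisation lost 4, the replicate block 5, a fit of only the groups compared 6 of 27, and a fit without a mean trend 16 of 39. The count of genes called became 2 after 12 h of IAA in CTCF AID cells with only the groups compared. After 12 h of 5-Ph-IAA in RAD21 AID cells it was 0 with quantile normalisation, with no mean trend and with only the groups compared. With no mean trend it was 0 at 24 h of 5-Ph-IAA, 1 from 12 to 24 h and 1 in serum. The Chd4 hairpin count was 4 among genes with a mean of at least 100, which leaves out low genes. The counts for the mutated CTCF interaction and for mutated CTCF without IAA were 0 with no mean trend, with the replicate block and with only the groups compared. With groups by treatment label the count in control cells with IAA was 1, where libraries of differing titles share a group. Apart from these alternatives, the cause of each loss was not tested.

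Without 1 library at a time the counts ran from 1 to 2 (CTCF AID, 12 h), 2 to 3 (24 h), 0 to 0 (RAD21 AID, 12 h), 2 to 3 (24 h), 1 to 3 (12 to 24 h), 2 to 5 (serum), 4 to 6 (Chd4 hairpin), 3 to 3 (control cells with IAA), 1 to 3 (wild-type CTCF), 4 to 4 (mutated CTCF), 0 to 0 (mutated interaction) and 0 to 1 (mutated CTCF without IAA). A lone library is then assumed to vary like the other groups. The count of genes higher in serum was 4 without any 1 library and 4 to 6 over the other settings. Replicate numbers did not pair the libraries: same-numbered libraries deviated together with r of -0.06 to 0.10 over 23 pairs of groups, with 1 pair over 0.1. With the replicate block the counts were 3 (CTCF AID, 12 h), 6 (Chd4 hairpin) and 4 (control cells with IAA). Adjusted p-values were then 0.052 for Spry2, 0.051 for Egr1 and 0.052 for Spry4. No other count of these genes moved under the block, except the 2 of mutated CTCF given above.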

Other observations

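Untreated serum-free cells differed among themselves in several of these genes, by up to log2 4.89 for Fos, 3.29 for Etv4, 2.11 for Myc, 1.78 for Spry4 and 1.47 for Dusp6 between the highest and lowest of 4 groups. The median of this range over all genes compared was 0.63, and Klf6 (0.51) lay below it.

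The high Fos of the control hairpin cells was set beside other immediate early genes. Of 17 such genes listed in all 4 serum-free tables, Fos included, 3 were at least 2-fold higher there than in each of the other 3 untreated groups, and 0 were at least 2-fold lower. The share of all genes placed in this way was not counted, so the 3 cannot be set against a background. In parts per 1000000 of the library total (ppm), Fos was at 74.1 ppm, against 1.54 to 2.14. Jun, a partner of Fos in AP-1, was at 25.4 against 3.16 to 6.16, and Zfp36, which encodes an RNA-binding protein that destabilises mRNA, at 23.2 against 5.41 to 8.36. Junb (8.93 against 6.77 to 8.43) and Nr4a1 (26.1 against 18.6 to 28.7) differed far less. Some genes of the list lay below each of the other groups, by less than 2-fold from the nearest. They were Jund (27.2 against 37.5 to 73.9), Ier2 (31.4 against 44.8 to 59.1), Csrnp1 (13.4 against 16.7 to 38.9) and Srf (22.9 against 25.4 to 28.9). These genes were named after their values were seen, and no test was made.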
